A study of Mus musculus with 8 samples.

Results

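Serpins make up a large family of proteins, many of which end the action of proteases outside and inside the cell. The family was followed here in mouse liver through the genes named Serpin on the array, leaving out the 3 inhibitors of clotting and fibrinolysis Serpinc1, Serpind1 and Serpinf2. A gene entered where a probe set listed it as its only gene, and the probe set with the highest mean log2 signal over all arrays stood for it. This gave 37 of the 18193 genes named on the array. They fell into clades A (14 genes), B (18), F, G and H (1 gene each) and I (2), and 19 of the 37 lay in the upper 50% of mean signal and were tested. The measured values that the rule used are the mean signals over all arrays, and no difference between groups entered it.

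RNA of whole liver was measured on 8 one-colour Affymetrix Mouse Genome 430 2.0 arrays, in 4 groups with 2 arrays each. Wild type (WT) mice were 3, 12 or 19 months old, and mice without Sirt1, called MT, were 3 months old. All groups shared a mixed genetic background of 129, FVB and Black Swiss, and all livers were collected during the same morning window with no treatment beyond the anaesthetic. MT mice lacked Sirt1, an NAD-dependent deacetylase, in the whole body from conception. Few such mice survive to adulthood, so these are survivors and their livers also lie in a body without Sirt1. The text of the study names more mice for a group than there are arrays, and how mice map to arrays is not stated. The p-values therefore rest on a spread between samples that may be technical in part.

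The genotype could not be checked at Sirt1 itself, since the place of its only tested probe set relative to the deleted part is not known here. That probe set read 589 and 539 on the 3-month WT arrays against 615 and 713 on the MT arrays. Array medians lay between 74.5 and 82.8. Log2 signals correlated at 0.913 to 0.926 within groups and at 0.909 to 0.922 between groups. The MT arrays held both extremes of the ratio of the 3' to the 5' control probe set of beta-actin, 1.96 on array 1 and 2.80 on array 2, against 2.14 to 2.48 on the WT arrays. The hybridisation control read at the 5' end of BioC was at 2493 on MT array 1 and at 5036 to 6639 on the other arrays. The methods describe the mutant mice as male, yet on every array Xist reached percentile 95.2 or more and no Y-linked probe set passed percentile 43.1. By these probe sets all 8 arrays read as female. Hepatocyte markers were high throughout, with summed signals of 521929 to 703062 over 12 genes.

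An inhibitory serpin offers a protease an exposed loop, the reactive centre loop. When the loop is cut, the serpin refolds and traps the protease in an inactive complex that is then cleared. Some members have lost this activity and serve as hormone carriers or as chaperones. Hepatocytes secrete many clade A members and several others into plasma, and clade B members mostly stay inside cells, where they protect the cell against its own or incoming proteases.

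The promoter windows of 5 members show how near relatives and members with different patterns read at the start of the gene. They come from RefSeq on GRCm38.p6, run 5' to 3' on the strand of the gene from 250 bases before to 50 bases after its start, and were found for 31 of the 37 members (37 windows). Capitals mark the letters GTTAAT, the core letters of a site for the hepatocyte factor HNF1, searched on both strands. Serpina1b lies on the minus strand at chr12:103738140-103738439 and Serpina1c, its near copy, on the minus strand at chr12:103904901-103905200. Serpina12 is on the minus strand at chr12:104044394-104044693, Serpina7 on the minus strand at chrX:139085187-139085486 and Serpinb8 on the plus strand at chr1:107589756-107590055.
Serpina1b: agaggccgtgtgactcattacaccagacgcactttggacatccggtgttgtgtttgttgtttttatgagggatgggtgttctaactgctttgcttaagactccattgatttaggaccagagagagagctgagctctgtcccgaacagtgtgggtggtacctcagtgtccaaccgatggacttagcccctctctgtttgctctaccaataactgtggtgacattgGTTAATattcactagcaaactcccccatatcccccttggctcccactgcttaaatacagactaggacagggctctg
Serpina1c: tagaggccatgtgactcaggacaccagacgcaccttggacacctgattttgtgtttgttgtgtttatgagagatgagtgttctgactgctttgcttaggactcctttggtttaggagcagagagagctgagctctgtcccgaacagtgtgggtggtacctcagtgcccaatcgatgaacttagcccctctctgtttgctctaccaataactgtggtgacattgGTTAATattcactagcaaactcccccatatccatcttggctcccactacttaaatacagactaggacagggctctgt
Serpina12: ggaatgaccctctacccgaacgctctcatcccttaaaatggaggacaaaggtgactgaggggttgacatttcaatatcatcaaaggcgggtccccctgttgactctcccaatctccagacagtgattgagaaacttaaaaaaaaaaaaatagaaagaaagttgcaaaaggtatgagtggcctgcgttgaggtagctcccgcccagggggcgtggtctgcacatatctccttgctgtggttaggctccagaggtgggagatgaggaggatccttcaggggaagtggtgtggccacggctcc
Serpina7: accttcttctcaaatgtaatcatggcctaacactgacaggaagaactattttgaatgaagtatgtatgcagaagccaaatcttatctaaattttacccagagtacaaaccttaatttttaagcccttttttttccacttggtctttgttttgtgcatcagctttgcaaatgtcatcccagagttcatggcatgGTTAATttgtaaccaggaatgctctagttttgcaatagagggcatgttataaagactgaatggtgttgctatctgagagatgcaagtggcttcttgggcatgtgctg
Serpinb8: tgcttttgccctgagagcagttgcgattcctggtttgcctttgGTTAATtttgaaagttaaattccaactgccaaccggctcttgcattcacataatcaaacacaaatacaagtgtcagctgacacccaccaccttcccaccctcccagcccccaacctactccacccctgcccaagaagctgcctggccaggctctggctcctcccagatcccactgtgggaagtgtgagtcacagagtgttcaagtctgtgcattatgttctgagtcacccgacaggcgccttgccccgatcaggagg

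The Serpina1b and Serpina1c windows matched at 276 of 298 aligned bases (92.6%), with GTTAAT in the same stretch of both. GTTAAT was found in windows of 5 members (Serpina1b, Serpina1c, Serpina7, Serpinb8 and Serpini2), or 6 of the 37 windows, and in 7.1% of all 32851 RefSeq promoter windows of this length. The STAT5 letters TTCNNNGAA, read on both strands, were in 8 of the 37 member windows, those of Serpina11, Serpina1f, Serpina3i, Serpinb2, Serpinb6a and Serpinb9c, and in 8.3% of all windows. The E-box CACGTG, which circadian factors bind, was in 0 member windows and in 7.15% of all windows, and the D-box TTATGTAA in 0 member windows and in 0.938% of all windows. The 5 windows printed here held at most 1 match each, so no motif overlapped another there. The Serpina12 window held none of these motifs, which says only that these letters are not in it.

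Clades A and B each held members with high and with low signal. Of the 37 members, 15 lay above the array median on all 8 arrays and 17 were below it on every array. The first set held 8 of the 14 clade A members, 4 of the 18 clade B members and the single members of clades F, G and H. The second held 5 members of clade A, 11 of clade B and 1 of clade I. Clade A members lie on chromosome 12, apart from Serpina7 on X, and clade B members on chromosomes 1 (7 genes) and 13 (11 genes). Of the 18193 genes named on the array, 10976 were tested. The 18 members not tested were 5 of clade A, 11 of clade B and both of clade I. Among them were Serpina5, the protein C inhibitor, Serpinb2, an inhibitor of plasminogen activators, and Serpinb5, known as maspin, all below the median on 8 of 8 arrays. Serpini1, neuroserpin, came nearest to the tested genes, with signals from 11.9 to 83.7 and 1 array above the median.

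**Figure D1:**
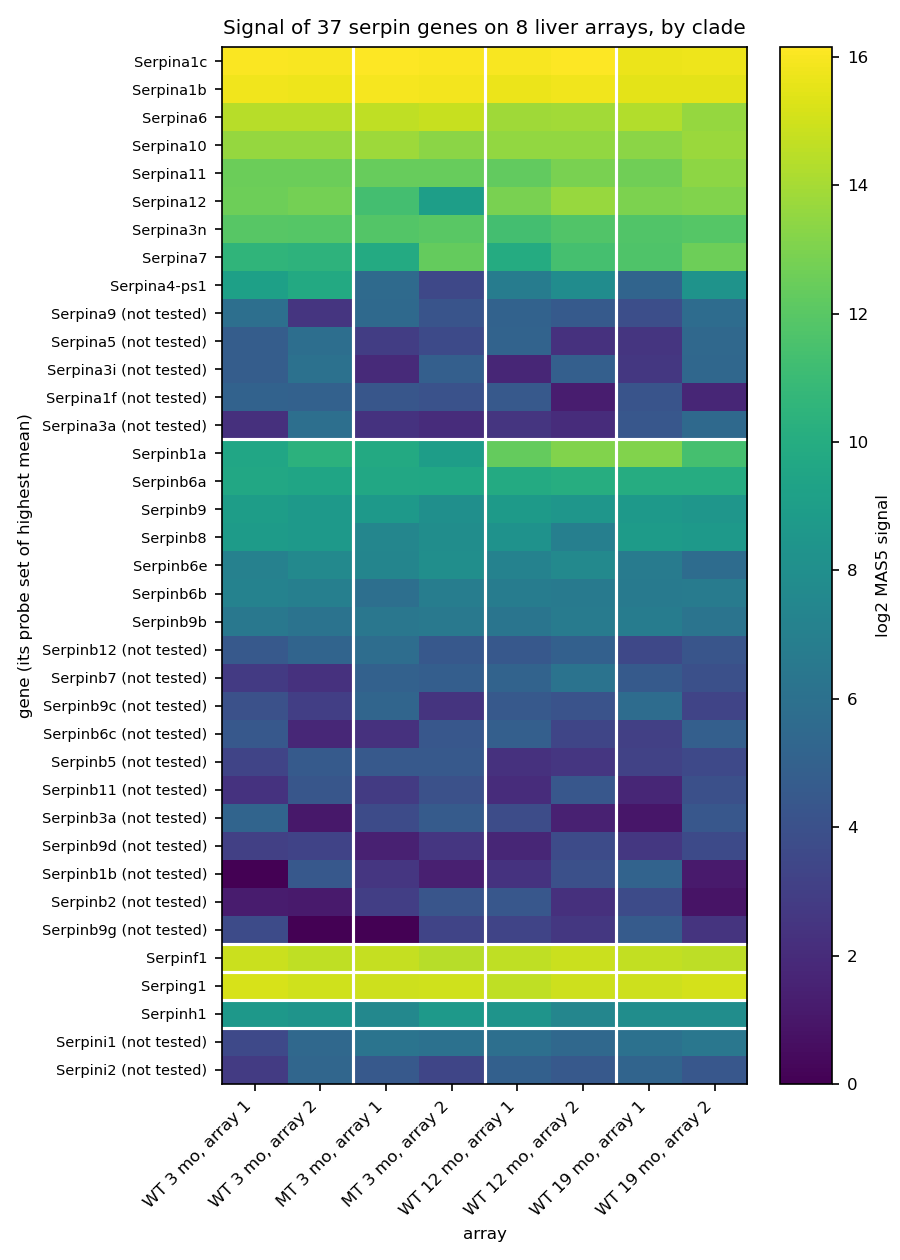
MAS5 signal of the 37 serpin genes (rows, by clade) on the 8 arrays (columns, by group), coloured on a log2 scale. A row is read from left to right, and colours are not compared between rows, since each probe set has its own efficiency. Serpinb1a is brighter on the 12-month and 19-month arrays than on the 3-month arrays, and Serpina12 and Serpina4-ps1 are darker on the MT arrays than on the 3-month WT arrays.

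The member probe sets of secreted serpins with the brightest signals differed between MT and WT mice of 3 months by 0.28 or less in size on the log2 scale. Serpina1b and Serpina1c encode forms of alpha-1 antitrypsin, the plasma inhibitor of neutrophil elastase. Serpina1b gave 57494 and 54436 in WT mice and 62730 and 59800.5 in MT mice. The log2 difference was 0.13 with a 95% interval of -0.10 to 0.36. Serpina1c gave 68051 and 65811 in WT and 70571 and 68319 in MT mice, with a log2 difference of 0.05 (-0.19 to 0.30). Both probe sets stood at or above percentile 99.9 of all probe sets on every array, near the top of the scale, and close paralogues may share their probes. The intervals therefore bound the difference in signal, and saturation was not tested. A dimmer probe set shared by Serpina1e, Serpina1c and Serpina1b gave 16524 and 16040 in WT mice against 13767 and 10209 on the MT arrays, which did not overlap, with a log2 difference of -0.46 (limma adjusted p = 0.347). A second probe set of Serpina1b alone differed by 0.12 (adjusted p = 0.712).

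Several other plasma serpins were likewise close. For Serpina3n, an antichymotrypsin-like acute phase protein that inhibits granzyme B, the log2 difference was 0.01 (-0.36 to 0.38). For Serpina10, the inhibitor that acts with protein Z, it was -0.04 (-0.44 to 0.36). Serpinf1, which encodes pigment epithelium-derived factor, differed by -0.14 (-0.47 to 0.19), and Serping1, the inhibitor of complement C1, by -0.14 (-0.46 to 0.18). A second probe set of Serpinf1 differed by -0.24 (limma adjusted p = 0.794). Serpina6, the corticosteroid carrier of plasma, gave 21482 and 22210 in WT mice and 24772 and 28330 in MT mice, higher on both MT arrays, with a log2 difference of 0.28 (-0.17 to 0.72). The intervals of all these members include 0 and none reaches past 0.72 in size. This does not extend to Serpina12 and Serpina7, which are treated below. Serpina12, with a mean log2 signal of 12.3 against 11.8 for Serpina3n, differed by -2.49. For Serpina7 the difference was 0.60, with a wide interval of -0.97 to 2.17.

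None of the 19 tested members was called in the comparison of MT with WT mice (limma adjusted p under 0.05), where 0.515% of all tested probe sets were. At an unadjusted p under 0.05 there were 0 members higher and 3 lower in MT mice, against 7.75% of genes higher and 7.41% lower. With separated arrays and a fold over 1.5 there were 0 members higher (5.21% of genes) and 4 lower (5.89% of genes), namely Serpina4-ps1, Serpina12, Serpinb8 and Serpinb6b. The members had a median log2 difference of -0.14 with 11 of 19 below 0, and the median of all 10976 tested genes was 0.0045. A size under 0.5 was found for 13 of 19 members (68.4%) and for 83.3% of genes.

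Serpina12 encodes vaspin, first described in visceral fat, which inhibits kallikrein 7. It gave signals of 6085 and 7141 in WT mice of 3 months and of 2571 and 535 in MT mice. The other 4 WT arrays gave 7787, 12796, 8079 and 8887. Both MT arrays therefore lay below all 6 WT arrays, but they differed from each other by 4.8-fold, a gap larger than that of 99.7% of genes in the MT group. The log2 difference between MT and WT mice was -2.49 ± 0.56 (SE, n = 2 arrays per group, interval -3.76 to -1.22, limma adjusted p = 0.0907). It was -3.62 without MT array 1 and -1.36 without MT array 2, each resting on 1 MT array. The MT arrays are also those at both extremes of the beta-actin ratio, and the part of that in the gap was not tested. A second Serpina12 probe set, too dim to be tested, gave 31.1 and 37.5 in WT mice of 3 months. It gave 58.3 and 17.1 in MT mice, so these pairs overlapped.

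Serpina4-ps1, a pseudogene of kallistatin, was below the array median on both MT arrays, at 48.9 and 11.1, and gave 579 and 887 in WT mice of 3 months. Against the array median it was at least 8.72-fold lower in MT mice, and the fitted log2 difference was -4.94 ± 0.95 (limma adjusted p = 0.0613). Its 2 other probe sets, both too dim to be tested, gave 239 and 464 in WT against 49.6 and 8.75 in MT mice, and 147 and 166 against 3.35 and 20.9. All 3 probe sets were thus lower on both MT arrays than on both WT arrays of that age. In older WT mice Serpina4-ps1 was scattered, with 110 and 237 at 12 months and 37.5 and 318 at 19 months. It differed from 3 months by -2.15 (limma adjusted p = 0.578) and -2.71 (adjusted p = 0.308), and 19-month arrays 1 and 2 were 8.48-fold apart. All 4 groups share 1 estimate of the spread in the fit, and leaving out either 19-month array takes this gap out of it. That changes no MT or 3-month WT value, so such fits say nothing more on the MT difference.

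**Figure D2:**
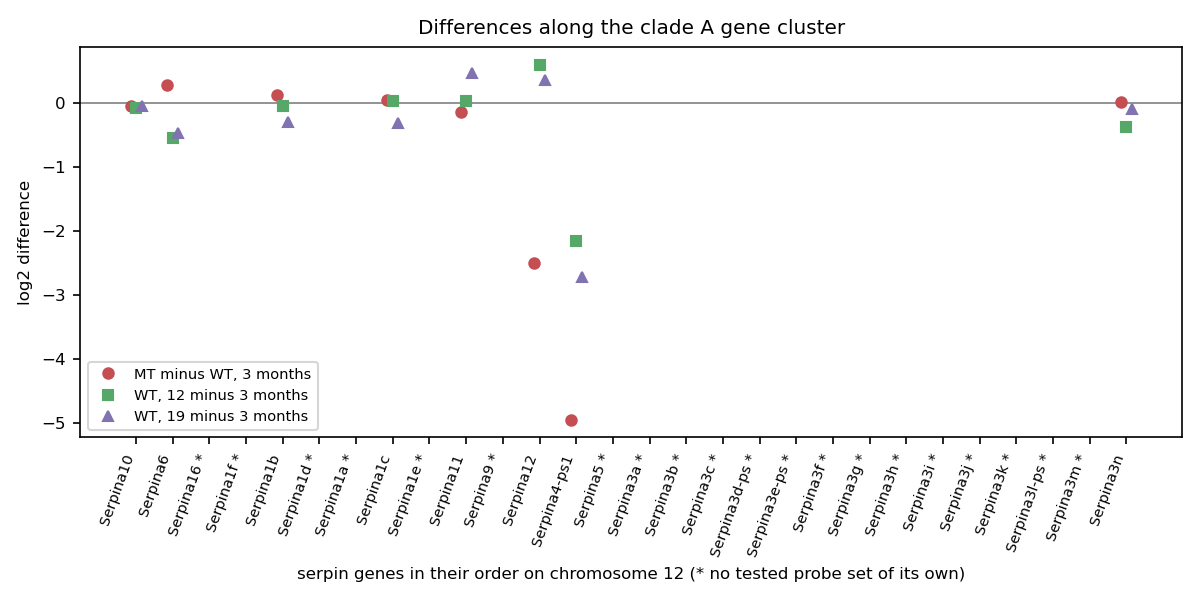
Log2 differences of the tested serpin members along chromosome 12, in the order RefSeq gives their genes (x axis, rank among the 28 serpin genes of the chromosome), for MT against WT mice of 3 months and for 12 and 19 against 3 months. The 2 members lowest in MT mice, Serpina12 (-2.49) and Serpina4-ps1 (-4.94), are neighbours, and the other tested members of this chromosome lie between -0.14 and 0.28 in that comparison.

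Serpina12 and Serpina4-ps1 stand next to each other on chromosome 12 as the 12th and 13th of its 28 serpin genes. The genes on either side, Serpina9 and Serpina5, were below the array median on all arrays and were not tested. The pair was picked out after its values were seen, so its place is a description. Against 3 months they did not share a direction with age. Serpina12 was at 0.60 at 12 months (limma adjusted p = 0.833) and at 0.36 at 19 months (adjusted p = 0.845) relative to 3 months, and Serpina4-ps1 was below 0 in both. Between 19 and 12 months both were below 0, at -0.24 for Serpina12 and -0.56 for Serpina4-ps1.

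Among the 7 tested clade B members, Serpinb8 had the largest log2 difference in MT mice. It inhibits furin, a protease that matures many secreted proteins. It gave 466 and 421 in WT mice of 3 months and 173 and 237 in MT mice, which differed by -1.13 ± 0.36 on the log2 scale (limma adjusted p = 0.22). A second probe set of Serpinb8 gave 217 and 198 against 74.1 and 86.5, a log2 difference of -1.37 (adjusted p = 0.085). Neither probe set overlapped between these groups. Furin itself, on the list of target proteases, was measured at 1888 and 1899 in WT and at 1502 and 1869 in MT mice, which differed by -0.18 on the log2 scale (adjusted p = 0.731).

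Serpinb8 was also low at 12 months and not at 19 months. It gave 304 and 125 at 12 months, both below the 3-month arrays, and 467 and 421 at 19 months, level with them. Its log2 difference from 3 months was -1.18 at 12 months (limma adjusted p = 0.424) and 0.0011 at 19 months (adjusted p = 0.999), and 19 months lay 1.18 above 12 months (adjusted p = 0.321). The second probe set gave 114 and 90.3 at 12 months and 270 and 174 at 19 months, in the same order of groups. The 12-month arrays of Serpinb8 were 2.43-fold apart, wider than the gap of 97.8% of genes in that group.

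Serpinb9, a granzyme B inhibitor, differed between MT and WT mice by -0.49 (limma adjusted p = 0.416), and its second probe set by -1.06 (adjusted p = 0.291). Serpinb6b differed by -0.69 (adjusted p = 0.466). Gzmb itself gave 166 and 156 in WT and 76.1 and 103 in MT mice, which differed by -0.86 on the log2 scale (adjusted p = 0.406). Of 7 tested T and NK cell markers 6 were below 0 in MT mice. The list includes Gzmb itself, and its summed signals were 802 to 869 in MT mice and 1140 to 1236 in WT mice of 3 months. Gzma, Gzmb and Ccl5 were lower on both MT arrays than on both of these WT arrays. Thy1 was higher on both, at 92.6 and 104 in MT against 44.2 and 70.5 in WT mice. Cd3g, Nkg7 and Prf1 overlapped between the groups, so the lower sum does not describe every marker of the list. In RNA of a whole tissue, fewer cells of a type and less RNA per cell cannot be told apart, and the part of these cells in the Serpinb9 value was not tested. Serpinb6a, an inhibitor of several serine proteases, stayed within 0.04 of WT in MT mice.

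**Figure D3:**
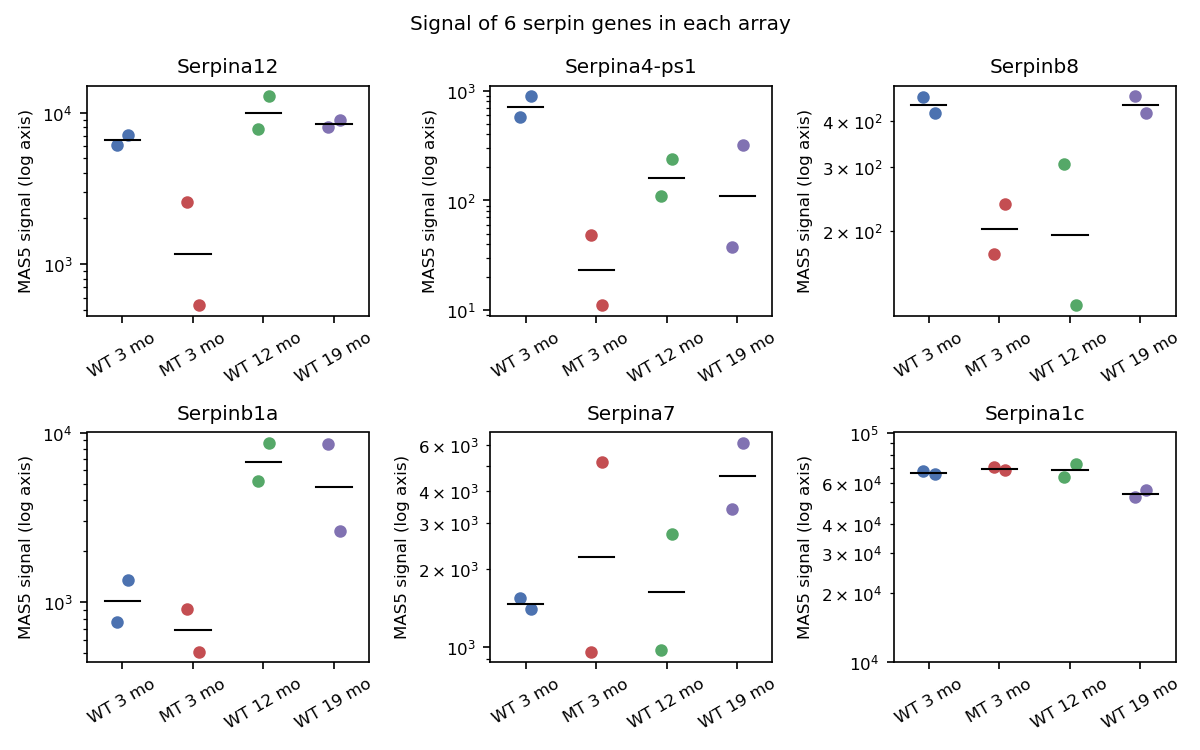
MAS5 signal (log axis) of 6 serpin members by group, where points are arrays and short lines mark each pair's geometric mean. Serpinb1a lies at 770 and 1345 in WT mice of 3 months and between 2647 and 8688 in those of 12 and 19 months, and the MT pairs of Serpina12 and Serpina4-ps1 lie below their WT pairs of 3 months.

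The comparisons of WT mice at 12 and 19 with 3 months ask how the family differs with age. No member was called at 12 months, where 0.0133% of probe sets were, nor at 19 months, where 0.0355% were, nor between 19 and 12 months, where 0% were. An unadjusted p under 0.05 was found for 7 of 19 members at 12 months (36.8%, against 9.02% of genes), for 8 at 19 months (42.1%, against 13.3%) and for 4 between 19 and 12 months (21.1%, against 11.1%). At 12 months 2 of these were higher (4.64% of genes) and 5 lower (4.38%), and at 19 months 3 were higher (7.28%) and 5 lower (6.05%). Both sets are compared with the same 3-month arrays. Several members lay close to the limit, so the counts depend on it. At 12 months Serpinb6a, Serpina4-ps1, Serpina3n and Serping1 had unadjusted limma p-values of 0.0437 to 0.0486. At 19 months Serpina7 was at 0.043 and Serpina6 at 0.044. With separated arrays and a fold over 1.5 there were 2 members higher (3.63% of genes) and 2 lower (3.62%) at 12 months, and 2 higher (5.24%) and 2 lower (3.84%) at 19 months. Between 19 and 12 months 1 member was higher (5.8% of genes) and 3 were lower (5.31%) at an unadjusted p under 0.05, and 2 were higher (4.36%) and 1 lower (3.03%) by separated arrays and that fold.

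Serpinb1a, an inhibitor of neutrophil elastase, cathepsin G and proteinase 3, had the largest log2 difference of the tested members at 12 months. Its signals were 770 and 1345 at 3 months, 5209 and 8688 at 12 months and 8586 and 2647 at 19 months. All 4 arrays of older mice lay above both 3-month WT arrays and above both MT arrays, at 909 and 512. The log2 difference from 3 months was 2.72 ± 0.52 at 12 months (SE, n = 2 arrays per group, interval 1.56 to 3.89, limma adjusted p = 0.193) and 2.23 at 19 months (adjusted p = 0.19). A second probe set gave 181 and 367 at 3 months, 1314 and 2087 at 12 months and 1884 and 532 at 19 months, with log2 differences of 2.68 (adjusted p = 0.212) and 1.96 (adjusted p = 0.236).

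Over the alternatives tried, the Serpinb1a difference stayed between 2.32 and 3.13 at 12 months and between 1.38 and 3.08 at 19 months, lowest at 19 months without array 1 of that age. Between 19 and 12 months it was -0.50 (adjusted p = 0.77), and the 19-month arrays were 3.24-fold apart. In MT mice Serpinb1a differed from WT mice of the same age by -0.58 (adjusted p = 0.695), and its second probe set by -1.21 (adjusted p = 0.368).

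Markers of blood cells also differed with age, and their part in the Serpinb1a values was not tested. Of 5 tested neutrophil markers 4 were above 0 at 12 months and 5 at 19 months, with median log2 differences of 0.21 and 0.47, and 0 were called. At an unadjusted limma p under 0.05, 0 were higher and 1 lower at 12 months, and 2 higher and 0 lower at 19 months. The lower one, Csf3r, gave 151 and 133 at 3 months, 64.4 and 65.1 at 12 months and 116 and 302 at 19 months. In MT mice 3 of the 5 were higher and 0 lower at that level, with a median log2 difference of 0.53. S100a8, a neutrophil calcium-binding protein, gave 408 and 361 at 3 months, 362 and 547 at 12 months and 776 and 887 at 19 months. S100a9, its partner, gave 257 and 304 at 3 months, 391 and 346 at 12 months and 690 and 815 at 19 months, above the younger WT arrays.

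The summed signal of the 10 neutrophil genes was 2368 and 2285 at 3 months, 2835 and 2261 at 12 months and 2491 and 6911 on 19-month arrays 1 and 2. Of the last sum 4553 came from Lcn2, which is also an acute phase gene and gave 673 on 19-month array 1. Camp and Ltf, stored in neutrophil granules, were below the median on all 8 arrays, as was Ctsg, the gene of the target cathepsin G, and Elane, the gene of neutrophil elastase, on 6 of 8. Markers of B and plasma cells had summed signals of 1231 to 1575 at 3 months, 3917 to 5073 at 12 months and 7854 to 8638 at 19 months, with the median log2 difference from 3 months at 0.89 and then 1.64. Among 6 tested, Igha, which encodes the heavy chain of IgA, was called higher at both ages, by 2.49 (limma adjusted p = 0.00902) and 3.34 (adjusted p = 0.00065).

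Serpina7, the thyroxine carrier, had MT arrays 5.4-fold apart, a gap wider than that of 99.8% of genes in the group. It gave 1546 and 1396 at 3 months, 978 and 2732 at 12 months, 3395 and 6122 at 19 months and 960 and 5182 in MT mice. Both 19-month arrays lay above all other WT arrays, and the MT pair held the lowest and a signal above all but 1 of the others. The log2 difference was 1.63 at 19 months (limma adjusted p = 0.385), 0.15 at 12 months and 0.60 in MT mice (adjusted p = 0.776), and 19 months differed from 12 months by 1.48 (adjusted p = 0.488). The MT value was -0.61 without MT array 2 and 1.82 without MT array 1. Fitted on the 3-month and 19-month WT arrays alone, the 19-month difference was called (adjusted p = 0.0442).

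Serpina6, the corticosteroid carrier, was lower at 12 months, with 14605 and 15463 against 21482 and 22210 at 3 months. These pairs did not overlap. At 19 months it gave 20244 and 12433, which span the 12-month values. The log2 difference from 3 months was -0.54 at 12 months (limma adjusted p = 0.502) and -0.46 at 19 months (adjusted p = 0.386).

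Both alpha-1 antitrypsin genes gave slightly lower signals at 19 months, without passing the test. Serpina1b gave 45435 and 46090 at 19 months and Serpina1c 52351 and 56023, below all other arrays of each gene. The log2 differences from 3 months were -0.29 for Serpina1b and -0.31 for Serpina1c (limma adjusted p = 0.313 for each), and those from 12 months -0.24 (adjusted p = 0.443) and -0.34 (adjusted p = 0.329). After quantile normalization the differences from 3 months were -0.06 and -0.07, and Serpina1b differed from 12 months by 0.0033. In the fit reported, a second probe set of Serpina1b differed from 3 months by -0.20 (adjusted p = 0.505). Its difference from 12 months was -0.27 (adjusted p = 0.437). A probe set shared by Serpina1d and Serpina1a gave 51576 and 52410 at 19 months and 65403 and 65332 at 3 months, a log2 difference of -0.33 (adjusted p = 0.279), and was at -0.26 at 12 months (adjusted p = 0.53). The one shared by Serpina1e, Serpina1c and Serpina1b was at -0.56 at 12 months (adjusted p = 0.479) and -0.39 at 19 months (adjusted p = 0.464), and 19 months lay 0.17 above 12 months (adjusted p = 0.791). In the same comparison 12 of 12 hepatocyte markers lay below 0, with a median log2 difference of -0.24, and 14 of 14 Kupffer cell markers above 0, with a median of 0.65. The part of these in the Serpina1 values was not tested.

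Of the remaining members, Serpinb6e was lower at 19 months, at 107 and 52.2, than at 3 months, at 138 and 198, with a log2 difference of -1.15 (limma adjusted p = 0.308). Serpinb6a gave 814 and 731 at 3 months and 1004 and 1032 at 19 months, a log2 difference of 0.40 (adjusted p = 0.35). At 12 months it was at 921 and 1068.5. Serpina11 differed by 0.48 at 19 months (adjusted p = 0.498), Serpina3n by -0.37 at 12 months (adjusted p = 0.578) and Serping1 by -0.32 at 12 months (adjusted p = 0.578). Serpinh1, the chaperone of procollagen also called Hsp47, differed by -0.55 at 12 months and by -0.54 at 19 months without passing. Its second probe set was at 0.04 and -0.16 in these comparisons, and in MT mice the probe sets were at -0.37 and 0.14, so they did not share a direction at 12 months or in MT mice.

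**Figure D4:**
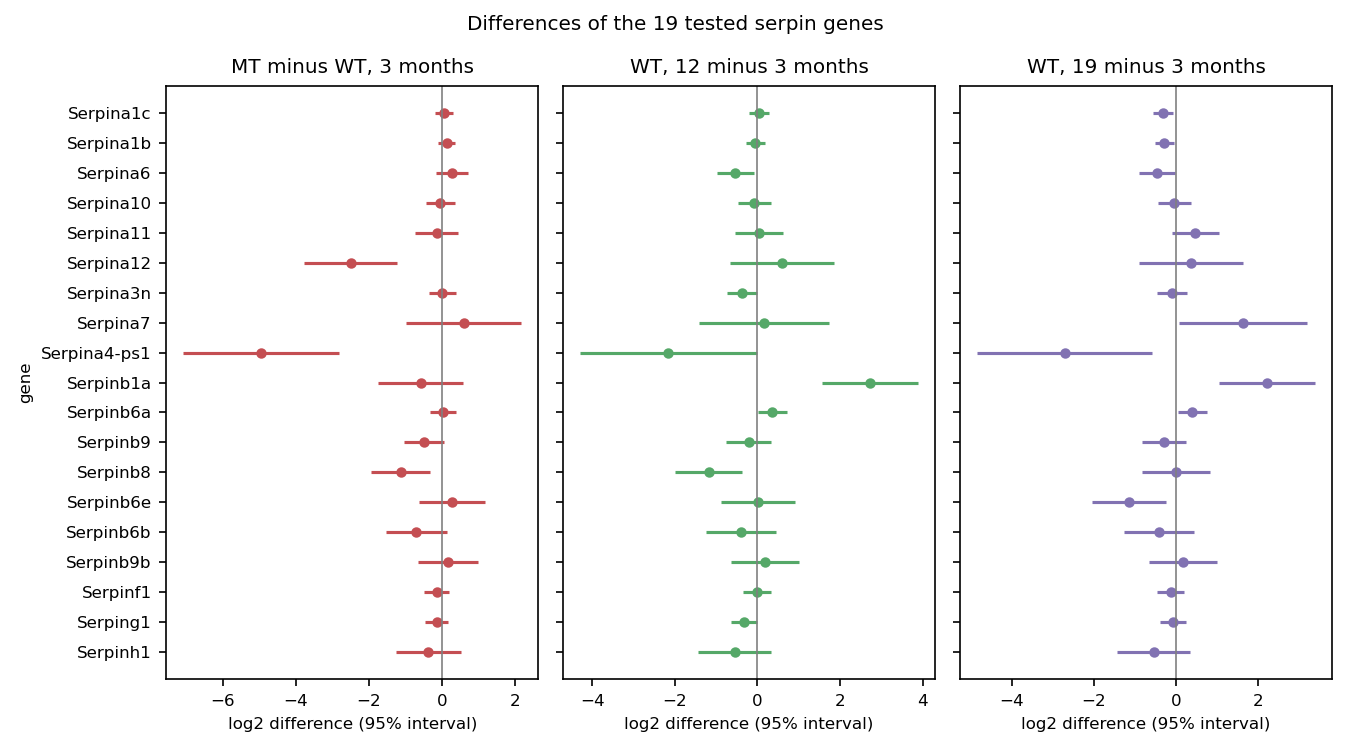
Log2 difference of each tested serpin member with its 95% interval (points and bars), by clade, in MT against WT mice of 3 months and in WT mice of 12 and 19 against 3 months, each panel with its own x range. Intervals leave 0 for 3 members in MT mice, 7 at 12 months and 8 at 19 months. Serpinb1a at 12 months (1.56 to 3.89) and Serpina12 in MT mice (-3.76 to -1.22) are among them.

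Partners of the serpins were read from 5 lists, and 2 of their genes were called in MT mice, 0 at 12 months, 1 at 19 months and 0 between 19 and 12 months. Of 16 tested target proteases and cofactors 0 were called in any of the 4 comparisons. In MT mice 13 of the 16 were below 0 with a median log2 difference of -0.17. They included Gzma, a granzyme of T and NK cells, at -2.03 (limma adjusted p = 0.0528), and C1ra, a target of Serping1, at -0.53 (adjusted p = 0.112). Ctsl, a cathepsin, was at -0.59 (adjusted p = 0.184) and did not overlap between the groups. Klkb1, plasma kallikrein and also a Serping1 target, was at -0.26 (adjusted p = 0.37).

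The 14 tested genes that make, carry or read thyroxine and corticosterone had medians of 0.06 in MT mice and -0.15 at 19 months, and 0 were called. Dio1, the liver deiodinase that acts on the hormone carried by Serpina7, gave 9188 and 8633 at 3 months and 2511 and 3392 at 19 months, a log2 difference of -1.61 (limma adjusted p = 0.0772). Ttr and Alb, which also carry thyroxine in plasma, differed by -0.22 (adjusted p = 0.475) and -0.35 (adjusted p = 0.313) at 19 months. Of 17 tested collagens and collagen-modifying enzymes, the clients and partners of Serpinh1, 0 were called and 11 were below 0 at 19 months, with a median of -0.19. Col3a1, a fibrillar collagen, differed by -0.76 in that comparison (adjusted p = 0.298).

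Acute phase genes outside the serpins were below 0 in MT mice for 26 of 29 tested genes, with a median log2 difference of -0.29, while Serpina3n was at 0.01. Of these 29, Orm3, an orosomucoid, was lower in MT mice and passed, with a log2 change of -1.55 (limma adjusted p = 0.0487). Of 22 tested genes with sex-biased or growth hormone dependent expression, Cyp7b1, an oxysterol hydroxylase, was lower in MT mice with -2.11 (adjusted p = 0.000748) and at 19 months with -1.19 (adjusted p = 0.0459). That list pools genes biased to either sex. Its median was -0.30 in MT mice, with 15 genes below and 7 above 0, and -0.03 at 19 months, with 13 below and 9 above. These lists are described by their counts, and nothing is drawn from them about the serpins.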

How the data were processed

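Processing started from the deposited table of MAS5 signal intensities, on a linear scale and scaled by the authors to a common mean. No MAS5 version was found in the sources, and the methods' filter on presence calls was left out. Of 45037 probe sets left after 64 controls, 34945 carried 1 gene symbol, 932 several and 9160 none, and only those with 1 symbol named a gene. All 37 members matched RefSeq by Entrez ID.

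Signals under 1 were set to 1, and log2 values were fitted with limma 3.58.1 in R 4.3.3 (lmFit, eBayes with variance trend), with all 4 groups in 1 fit. Testing was limited to 22519 probe sets, the upper 50% by mean log2 value (at least 6.18), with 4 residual and 5.37 prior degrees of freedom. The Benjamini-Hochberg method adjusted two-sided p-values for each comparison, with calls under 0.05, and 95% intervals are those of the moderated statistic. An exact permutation test of 2 against 2 arrays cannot go below 0.333 and was not used. The fit was tested on simulated data. Where both arrays of a group read a gene below their median, its fold is a lower bound against that median.

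Called members, then up to 4 per clade of largest moderated statistic, then members with well-known roles were named. From each other list, genes called or of large moderated statistic were named, and some for their link to a member or cell type. The members and lists were chosen with earlier results of these data known. Some members of the lists were not analysed here. Promoters were read with Python 3.11.15 and aligned with Biopython 1.88, and tables and plots were made with pandas 2.3.3, numpy 2.4.6 and matplotlib 3.10.9. Same-numbered arrays of different groups deviated together by correlations of -0.03 to 0.141. No pairing by number was assumed in the reported fit, and with 2 arrays per group this check cannot settle whether one exists. Alternatives covered normalization, log transform, filter, groups fitted, variance prior, test, threshold, replicate block, probe set chosen and each array left out in turn. Precision is limited by the number of arrays.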

Additional observations from a re-analysis of the deposited data

How the results depend on the processing

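With all probe sets tested, a stricter filter on signal, another floor or offset, medians centred or quantile normalization, 0 serpin members were called in each comparison, as in the fit reported. In MT mice 1 member was called with only the compared arrays fitted, 2 at an adjusted p under 0.10 and 2 by the methods' test at unadjusted p. A fit with an array left out holds 1 array in that group, so its calls are not given for the members. The Serpina12 difference in MT mice was -3.62 without MT array 1 and -1.36 without MT array 2. The methods' test called 1 member at 12 months (Serpinb1a), and 1 was called at 19 months with only the compared arrays fitted (Serpina7). Serpina1b at 19 against 12 months turned from -0.24 to 0.0033 under quantile normalization. The replicate block called 0 members in all 4 comparisons and left the counts of partner genes at 2, 0, 1 and 0, so it changed no count.

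Partner genes called in MT mice, 2 as reported, were 1 under quantile normalization, 1 with no filter, 1 without a variance trend, 6 at an adjusted p under 0.10, 4 with any probe set, 6 by the methods' test, 0 by that test after adjustment and 1 to 5 when an array was left out. At 19 months, 1 as reported became 2 with medians centred, 0 with the stricter filter, 4 with only the compared arrays, 0 without a trend, 2 at 0.10, 7 by the methods' test, 0 after its adjustment and 0 to 2 with an array left out. At 12 months 0 became 4 by the methods' test and 0 to 1 with an array left out (1 without 12-month array 1), and between 19 and 12 months 0 became 3 by the methods' test. The causes were not tested. With 2 arrays per group and brightness near the top or bottom of the scale, small differences could not be seen.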
